A study of Bos taurus with 18 samples.

Results

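Clones H, I and J are 3 of the 18 samples of a study of bovine mesenchymal stem cells (MSCs). They were chosen from their own expression values, clone H being close to both clone I and clone J, and they are compared here with the 14 other clones, A to G and K to Q. Every clone was a population grown from a single bone marrow cell, expanded in monolayer on tissue culture plastic in DMEM with FBS and antibiotics, and its polyadenylated RNA was sequenced at passage 1. No group carried a treatment or an engineered allele, and the remaining sample, a heterogeneous population, was left out of every comparison between groups. Each clone gave 1 library, so by the labels the spread given below is the spread between clones and holds no repeat of any one clone. Whether the clones came from 1 animal or several is not given in the sources used here. The clones were studied to ask whether the transcriptome of undifferentiated MSCs foretells how much cartilage-like matrix they later deposit.

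MSCs are stromal cells of the marrow that can be induced to form cartilage, bone or fat. Cartilage matrix is built on type II collagen fibrils and on aggrecan, a proteoglycan whose sulfated chains hold water, and the transcription factor SOX9 drives the genes of both. In monolayer, before induction, MSCs mostly make the fibrillar collagens and glycoproteins of connective tissue, along with the growth factor binding proteins, receptors and inhibitors that shape their response to TGF-β, BMP, Wnt and IGF ligands.

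The libraries of H, I and J held 15972076, 13803983 and 14193790 reads on genes, within the range of all 17 clones (11484812 to 18458157). Mean reads on genes were 14656616 ± 1155774 (SD, n = 3) against 14661744 ± 1844275 (SD, n = 14; two-sided exact permutation p = 0.996, and the smallest p this design allows is 0.00147). Reads outside genes came to 21.2% ± 1.36 (SD, n = 3) against 21.39% ± 2.182 (SD, n = 14; exact permutation p = 0.896). Ambiguous reads came to 0.178% ± 0.00609 (SD, n = 3) against 0.175% ± 0.00777 (SD, n = 14; exact permutation p = 0.560), and with Benjamini-Hochberg adjustment over the 3 tallies every exact permutation p was 0.996. Levels of single genes are given as CPM, read counts scaled to the depth of the library, with TMM scaling. Summed levels of lists are CPM scaled to the library total of reads on genes, without TMM. A count of 0 allows up to 3 reads, or 0.1625 to 0.2612 CPM, counting error only. The labelled cell type was borne out by its markers. H, I and J held 4909, 2518 and 3499 reads of ENG, 6436, 4851 and 6343 of NT5E and 9919, 5159 and 7826 of THY1, which encode the MSC surface proteins CD105, CD73 and CD90. PTPRC, the pan-leukocyte gene, had 1, 1 and 0 reads, and the endothelial genes CDH5 and KDR had 0 reads in all 3 clones. The 20 macrophage and leukocyte markers summed to 9.08, 9.13 and 9.79 CPM in H, I and J, against 4.33 to 30.3 CPM in the other clones. The 14 endothelial markers summed to 64.4, 38.9 and 45.9 CPM, mostly ERG, against 17.9 to 89.7 CPM, and the 15 erythroid markers to 23.8, 20.1 and 27.97 CPM against 10.9 to 42.1 CPM.

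Clone H was close to both of its partners, but I and J were not close to each other. Over the 11339 genes that passed the filter on low counts, the Pearson r of log2(CPM + 0.25) was 0.979 between H and J, 0.977 between H and I and 0.967 between I and J. Among all pairs of clones these ranked 11, 15 and 37, beside a median r of 0.951 and a range from 0.912 to 0.995. The closest pair, C and O, lay outside the trio. They are counted as separate clones among the other 14, and whether they are independent of each other was not tested. Clone J was nearest to clone B (r = 0.980), and 7 clones, H and B among them, were closer to J than I was. Clone I was nearest to H, but G (r = 0.974), A (r = 0.973), B (r = 0.971) and F (r = 0.968) all came before J. In an average linkage tree on 1 - r the 3 clones formed no branch of their own, so H, I and J are named here by the rule that chose them and not as a type of clone. These correlations are across genes of single libraries and carry no test. They come from the expression values that chose the clones, and the measure of closeness used in that choice is not given.

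**Figure D1:**
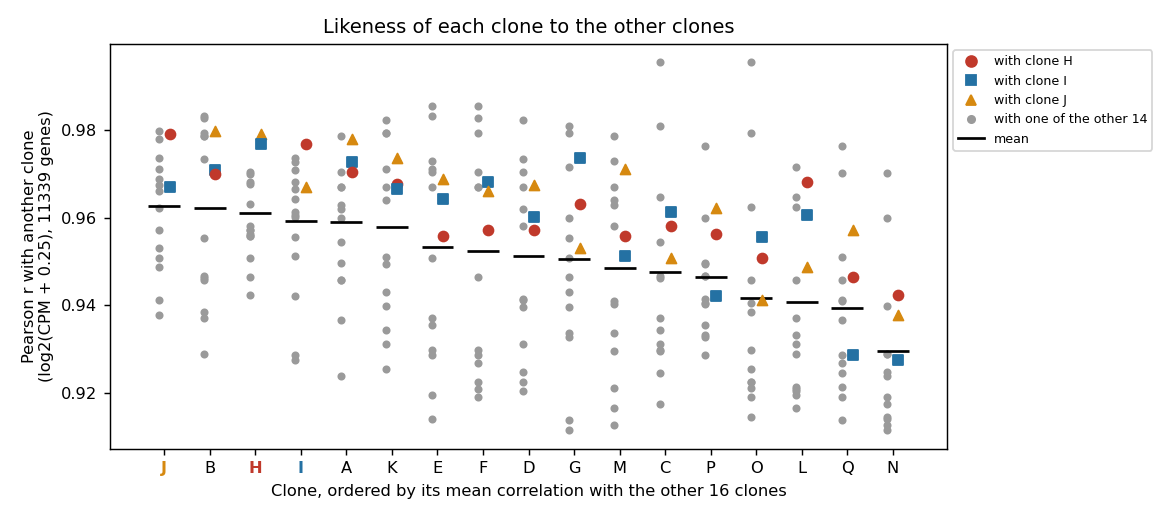
Pearson r of each of the 17 clones (x axis, ordered by mean r) with each other clone (y axis, log2(CPM + 0.25) over 11339 genes), with r to H, I and J in colour and to the other 14 clones in grey. The black bars mark mean r, and J (0.963), H (0.961) and I (0.959) ranked 1, 3 and 4 of the 17 clones.

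Clones H and J lay near the middle of the whole set, and clone I did so by some measures. Mean r with the 16 other clones was 0.963 for J, 0.961 for H and 0.959 for I, ranks 1, 3 and 4, with B at 0.962 between them and N lowest at 0.930. These means include the correlations within the trio, which was chosen from the same expression values. Clone H was the highest or the lowest of the 17 clones at 4.89% of genes, J at 6.36% and I at 7.31%, against 3.78% for B and 26.4% for N. The first principal component (30.55% of the variance) placed H, I and J at 7.05, 8.28 and -12.9, between F at -33.6 and O at 55.8, and on the second (24.65%) I stood at 20.4, near the upper end of a range from -63.2 (N) to 26.6 (G), with H at -0.78 and J at -1.64. The correlation with the heterogeneous population was 0.965 for J, 0.949 for H and 0.935 for I, ranks 3, 8 and 11, in a range from 0.896 to 0.967. At least a 2-fold difference was seen at 265 genes between H and J, 271 between H and I and 523 between I and J, out of 9183 genes with a mean of at least 5 CPM. Over all pairs that number had a median of 774.5 and ran from 0 (C and O) to 1592 (N and O). Some genes also differed between the clones beyond counting error at the 95% level. Their share of genes with at least 50 reads in the pair was 51.53% (H and J), 53.9% (H and I) and 60.47% (I and J). Over all pairs this share had a median of 63.59% and was lowest, at 20.95%, between C and O. Each clone had 1 library, so the share between repeat libraries of 1 clone is not known.

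No gene was called between H, I and J and the 14 other clones, and the levels of 20 genes did not overlap. edgeR's quasi-likelihood test called 0 genes higher and 0 lower (0% of 11339) at an adjusted p under 0.05, and the smallest adjusted p was 1. At an unadjusted p under 0.05 it gave 330 genes (2.91%), with 160 higher (1.41%) and 170 lower (1.5%). DESeq2 and limma also called 0 genes, with 424 and 288 at an unadjusted p under 0.05. Because expression chose the clones, these counts describe the contrast and nothing is read from them. The levels in all of H, I and J lay above those of each of the 14 others at 11 genes (0.097%) and below them at 9 genes (0.0794%), or 20 genes in all (0.176%). With each library scaled to its total of reads on genes the split was 18 and 3 in place of 11 and 9, and 5 and 2 of these genes were shared with the TMM set. Fitted log2 fold changes were above 0 at 40.7% of genes, with a median of -0.04. They were at least 2-fold higher at 67 genes (0.591%) and at least 2-fold lower at 329 genes (2.90%). In RNA from a whole clone, fewer cells that express a gene and less RNA per cell cannot be told apart.

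L1CAM, a neural cell adhesion molecule of the immunoglobulin superfamily, stood farthest above the other clones. It measured 54.5, 65.7 and 41.9 CPM in H, I and J, against a lowest of 0.812 (Q), a median of 12.9 and a highest of 32.4 CPM (C) in the other 14. The groups did not overlap, and the log2 fold change was 1.96 ± 0.67 (SE). ISG12(B), an interferon-inducible gene, measured 52.5, 55.9 and 39.9 CPM against 9.06, 27.8 and 39.1 CPM for the lowest, median and highest other clone, with a log2 fold change of 0.90 ± 0.31. Clone J passed clone A by less than 1 CPM there. PSMB9, a subunit of the immunoproteasome, had a low level of 2.44, 3.26 and 2.55 CPM, against 0.132, 1.15 and 1.91 CPM (log2 fold change 1.26 ± 0.48). The bile acid and steroid sulfate carrier gene SLC10A6 measured 0.774, 0.747 and 0.729 CPM from 13, 11 and 10 reads, against 0.135 to 0.557 CPM. GNAT1, a transducin subunit best known from rod cells, measured 10.7, 6.05 and 6.78 CPM against 1.15, 3.91 and 5.98 CPM (1.05 ± 0.39). These 5 genes differed from the median of the other clones by more than the remaining 6, all but one of which differed by under 1.5-fold.

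The remaining 6 genes on the higher side were separated by narrow gaps. SH2D7 measured 2.80, 2.72 and 2.84 CPM against a highest other level of 2.37 CPM, with a log2 fold change of 0.76 ± 0.32. TRIM34, a member of the TRIM ubiquitin ligase family, measured 7.44, 6.39 and 6.268 CPM against a highest other level of 6.266 CPM (P), so that J and P were in effect tied. METTL12, a mitochondrial methyltransferase gene, measured 34.6, 39.9 and 34.9 CPM against 15.4 to 32.7 CPM. FAF1, which binds the death receptor FAS and ubiquitin, measured 20.6, 21.2 and 20.3 CPM against 14.9 to 20.2 CPM. PPP1R7, a regulatory subunit of protein phosphatase 1, measured 59.9, 67.0 and 61.1 CPM against 43.7 to 59.2 CPM. EIF3D, a subunit of the translation initiation factor eIF3, measured 226, 223.5 and 236 CPM against 140.3 to 223 CPM, with a log2 fold change of 0.20 ± 0.11. The log2 range among H, I and J at these genes ran from 0.06 at FAF1 to 0.24 at TRIM34.

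On the lower side the differences were smaller than at L1CAM. RAPH1 (lamellipodin), which links Ras signals to actin at the leading edge of moving cells, measured 25.4, 24.5 and 29.6 CPM in H, I and J, against 29.9 (K), 38.6 and 62.4 CPM (Q) for the lowest, median and highest other clone. Its log2 fold change was -0.68 ± 0.24, and J lay just under K. ANTXR2, a receptor for collagen VI fragments and for anthrax toxin, measured 83.4, 90.2 and 102.5 CPM against 105.6, 123 and 164 CPM (-0.45 ± 0.14). PCNXL2 was low in every clone, with 1.43, 1.495 and 0.875 CPM in the trio against 1.78 to 4.60 CPM (-1.20 ± 0.35). EIF5A2, an isoform of the translation factor eIF5A, measured 1.37, 2.24 and 2.04 CPM against 2.28 to 4.46 CPM (-0.72 ± 0.23), from 23, 33 and 28 reads. POLR2K, a small subunit shared by the RNA polymerases, measured 1.90, 1.97 and 2.11 CPM against 2.24 to 4.77 CPM. TMEM17, a protein of the ciliary transition zone, measured 14.3, 14.8 and 15.7 CPM against 16.7 to 30.8 CPM. The 3 others were CDR2 (26.1, 27.5 and 22.2 CPM against 27.9 to 43.9 CPM), KIAA1279 (28.97, 29.5 and 29.4 CPM against 31.2 to 43.6 CPM) and TBC1D9 (28.97, 34.7 and 34.6 CPM against 34.9 to 58.9 CPM). None of the 20 genes is a gene of cartilage matrix. At 7 of the 20 the heterogeneous population also lay beyond the 14 clones on the same side. How often it lay beyond them over all genes fitted was not counted, so nothing is read from this number.

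**Figure D2:**
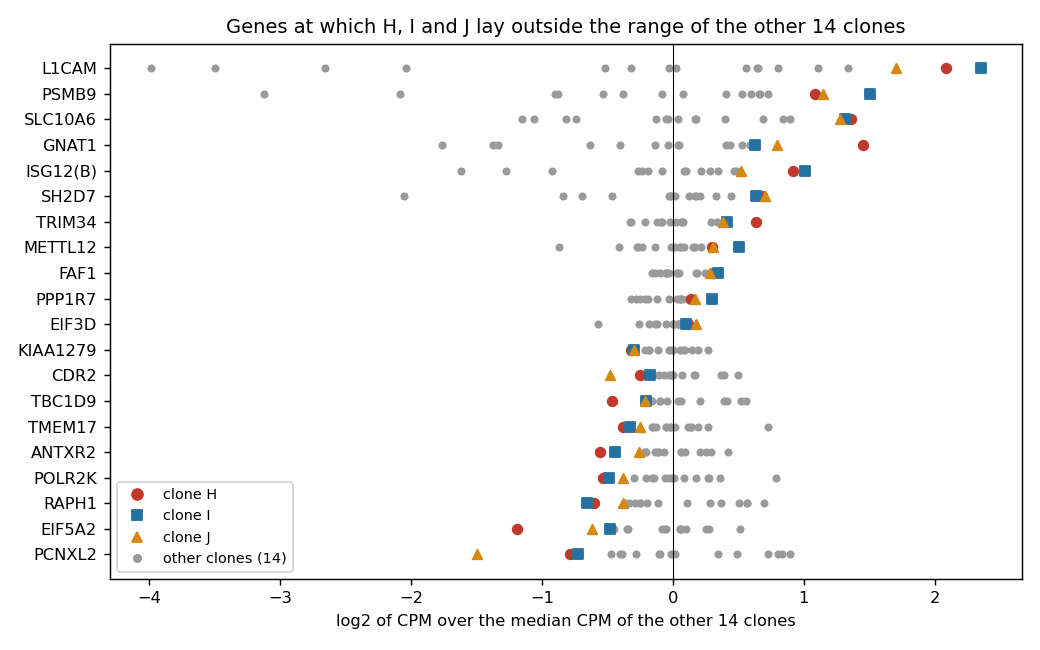
Level of each of the 20 non-overlapping genes in H, I and J (colour) and in each of the other 14 clones (grey), as log2 of CPM over the median CPM of the 14. L1CAM lies farthest from the median of the other clones, and at TRIM34 J and the nearest grey point coincide.

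Cartilage matrix genes had low fitted values in H, I and J, but the levels overlapped those of the other clones. ACAN, the aggrecan gene, measured 18.5, 39.6 and 115 CPM, against a lowest of 38.4 (E), a median of 196 and a highest of 2752 CPM (N) in the other 14. H was the lowest of all 17 clones, I ranked 15 and J ranked 10 from the top, so the groups overlapped. The log2 fold change was -3.41 ± 1.40 (SE), and between the medians of the 2 groups the log2 ratio was -2.30. The log2 fold change of ACAN was -4.40 without J and -2.58 without N, P and Q. COL2A1, the type II collagen gene, measured 62.2, 19.1 and 41.4 CPM against 16.7 (L), 115 and 1217 CPM (O), with a log2 fold change of -2.82 ± 1.37. H ranked 9 of the 17 at COL2A1 although it was lowest at ACAN. COL9A2, a chain of the type IX collagen on cartilage fibrils, measured 0.298, 0.612 and 0.802 CPM against 0.179, 1.13 and 34.9 CPM (-3.44 ± 1.81). I and J ranked 10 and 8 of the 17 at COL9A2, and its log2 ratio of medians was -0.68. Its log2 fold change was -2.80 without O, a fit that still held C, the clone closest to O, at 28.4 CPM.

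At COMP and PRG4, as at COL9A2, the fitted fold was far from the ratio of medians, and a few of the 14 clones were very high. COMP, a glycoprotein that helps collagen fibrils assemble, measured 1.43, 1.29 and 2.26 CPM against 0.139, 2.07 and 51.1 CPM (N), with a log2 fold change of -2.38 ± 1.54 but a log2 ratio of medians of -0.47. Without N, P and Q the log2 fold change of COMP was -0.49. PRG4, the joint lubricant lubricin, measured 1.07, 0.747 and 4.81 CPM against 0.541, 1.12 and 546.5 CPM (N). Its log2 fold change was -4.68 ± 2.73 with all clones and 0.82 without N, P and Q, and the log2 ratio of medians was -0.06. SOX9 measured 9.995, 9.31 and 7.51 CPM against 2.84, 12.6 and 22.8 CPM (-0.41 ± 0.60), in the middle of the set. Of the 28 genes on the cartilage list 19 were fitted, and 2 had a log2 fold change above 0 and 17 below, with a median of -0.75 beside -0.04 for all genes. At least a 2-fold lower value was seen at 8 of the 19, beside 2.90% of all genes, and 0 were called. The list median was below 0 under every alternative but the DESeq2 test, which was not applied to lists. It ran from -1.23 without J to -0.51 without N, P and Q. The summed level of the list was 2367, 2626 and 2968 CPM in H, I and J, ranks 16, 15 and 14, with only clone L (2258 CPM) below them and Q at 9112 CPM.

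**Figure D3:**
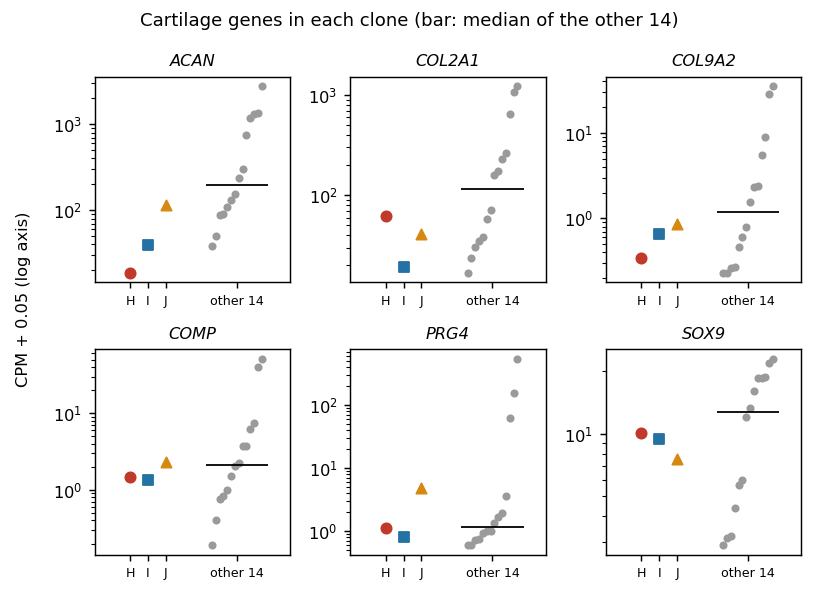
Level of 6 cartilage genes in H, I and J (colour) and in the other 14 clones in order of level (grey, with a bar at their median), as CPM + 0.05 on a log axis. ACAN in H (18.5 CPM) lies under every other clone, and PRG4 shows 3 clones far above the rest.

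The genes of matrix outside cartilage differed less. On the list of fibroblast collagens and glycoproteins 20 of 24 fitted genes had a log2 fold change below 0 (median -0.28). FBLN2 (fibulin 2) measured 670.1, 669 and 1379 CPM against a median of 1853 CPM, and THBS2 (thrombospondin 2) 391, 224 and 236 CPM against a median of 448 CPM. The log2 fold changes were -1.41 ± 0.88 and -1.27 ± 0.97, and that of THBS2 was -0.22 without N, P and Q. Among the small leucine-rich proteoglycans and syndecans 9 of 16 were below 0 (median -0.20), with the extremes in opposite directions: ASPN (asporin), which binds TGF-β, measured 271, 262 and 763 CPM against a median of 918 CPM (-1.14 ± 0.70, and -1.83 without J). OGN (osteoglycin) measured 1823, 1379 and 1444 CPM against 294, 833 and 1635 CPM (0.68 ± 0.35), and H was the highest of all clones. Enzymes of collagen modification and cross-linking were below 0 at 13 of 18 (median -0.09), with LOXL4, a lysyl oxidase, at 106, 309 and 163.5 CPM against a median of 417 CPM (-1.60 ± 0.96). Matrix proteases and their inhibitors were split 11 and 11 (median -0.02), and MMP2, gelatinase A, measured 1729, 1349 and 2062 CPM against 1544, 2653 and 3458 CPM (-0.57 ± 0.27), with I the lowest of all clones.

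Genes of the IGF axis and of pericytes showed no common direction. IGFBP3, the main carrier of IGFs in serum, measured 241, 123 and 220.0 CPM against 22.1, 73.8 and 128 CPM (log2 fold change 1.38 ± 0.37 SE), and H and J were above every other clone while I ranked 6. IGFBP6, which prefers IGF2, measured 669, 470.3 and 564 CPM against a median of 347 CPM (0.71 ± 0.34). PAPPA, a protease that cleaves IGF binding proteins, measured 14.6, 12.2 and 13.5 CPM against a median of 16.1 CPM (-0.57 ± 0.55), and its relative PAPPA2 had 0, 0.136 and 0.0729 CPM, at or near the limit of detection. On the IGF list 9 of 15 were above 0, with a median of 0.06. PDGFRB, the PDGF receptor of stromal cells and pericytes, measured 581, 364 and 415 CPM against 176, 290.5 and 397 CPM (0.62 ± 0.21), and H and J again exceeded every other clone. ANGPT2, a ligand of the TEK receptor, measured 82.3, 59.1 and 26.4 CPM against 0.659, 15.5 and 39.4 CPM (1.88 ± 0.75). H and I were the highest of all clones at ANGPT2 and J ranked 5. ANGPT1, another ligand of TEK, measured 1.43, 0.680 and 0.875 CPM against a median of 0.884 CPM (-1.23 ± 0.98), and MCAM 11.1, 6.05 and 5.69 CPM against a median of 6.67 CPM (-0.57 ± 0.76). On the pericyte list 4 of 7 were above 0 (median 0.05), and on the list of MSC surface and stromal markers 10 of 16 were (median 0.07), with THY1 at 590.1, 350.5 and 570.4 CPM against a median of 305 CPM (0.53 ± 0.26).

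Fitted values of TGF-β and BMP signalling genes leaned low. Of 34 fitted genes 28 had a log2 fold change below 0 (median -0.33). At least a 2-fold lower value was seen at 8, beside 2.90% of all genes, and 0 were called. The median of the log2 ratios of group medians was nearer 0, at -0.21. The summed level of the list was 5573, 4845 and 6677 CPM in H, I and J against a median of 6322 CPM, so J was above it. TGFBI, an extracellular protein induced by TGF-β, measured 40.9, 12.98 and 49.6 CPM against 15.1, 55.6 and 358 CPM (-1.77 ± 0.96), and I was the lowest clone. BMPR1B, a type I BMP receptor, measured 3.69, 2.72 and 3.13 CPM against 2.20, 7.01 and 21.9 CPM (-1.62 ± 0.74). The antagonists NOG (0.0595, 0.883 and 0.219 CPM, from 1, 13 and 3 reads) and BMPER (1.19, 0.204 and 0.510 CPM, from 20, 3 and 7 reads) were low. Their fitted values were -1.90 ± 1.34 and -2.66 ± 2.07. Their highest other clones stood at 6.55 CPM (O) and 38.0 CPM (N). At BMPER the median of the other clones was 0.191 CPM, the log2 ratio of medians was 0.79, and the log2 fold change was -1.19 without N and -0.08 by limma, so no direction holds there. The log2 fold change of NOG was -3.35 without I.

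Fitted values of Wnt genes leaned low too. Of 28 fitted genes 22 were below 0 (median -0.27), and the median of the log2 ratios of group medians was -0.12. At least a 2-fold lower value was seen at 5 genes, beside 2.90% of all genes. The 2 genes at least 2-fold higher, beside 0.591% of all genes, were the secreted inhibitors SFRP4 and SFRP2 (1.004 ± 0.94, chosen after its values were seen). WNT5A, a ligand of the non-canonical branch, measured 6.90, 6.999 and 9.91 CPM against 3.96, 16.8 and 75.4 CPM (-1.39 ± 0.76), and WNT7B 0.595, 0.544 and 0.292 CPM against 0.457, 1.30 and 9.92 CPM (-2.41 ± 1.06). RSPO1, which amplifies Wnt signals, had 0 reads in all of H, I and J and up to 2.09 CPM (K) in the others, of which 5 also had 0 reads. The median of the others, 0.103 CPM, lay below the limit that a count of 0 allows. With 3 reads over the 3 libraries as the limit, it was at least 6.08-fold lower than the mean of the other clones, a mean set largely by K and D (1.61 CPM). SFRP4, a secreted Wnt antagonist, measured 180, 26.8 and 54.5 CPM against 1.603, 22.0 and 63.4 CPM (1.84 ± 0.79). H was the only clone of the trio above every other clone, and the log2 fold change of SFRP4 was 0.74 without H.

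Genes of glycolysis and hypoxia were below 0 at 23 of 27 (median -0.27). SLC16A3, the lactate exporter MCT4, measured 1.73, 2.04 and 10.1 CPM against 1.32, 11.4 and 85.0 CPM (-2.44 ± 1.29, and -3.73 without J). SLC2A1, the glucose transporter GLUT1, measured 36.4, 35.3 and 55.0 CPM against 30.9, 75.3 and 181 CPM (-0.99 ± 0.50). CA9, a carbonic anhydrase induced by HIF1, measured 0.595, 0.204 and 1.02 CPM against 0.0734, 0.733 and 28.8 CPM. It had the largest fitted log2 fold change of the list, -3.18 ± 1.73, with a log2 ratio of medians of -0.22. Cholesterol synthesis leaned the other way, above 0 at 17 of 21 (median 0.13), but the median was -0.004 without I. The pathway summed to 3735, 4064 and 2178 CPM in H, I and J against 1156 to 4893 CPM, and the isomerase gene IDI1 measured 143, 165 and 102 CPM against a median of 102.5 CPM (0.38 ± 0.31).

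Genes of DNA replication and mitosis differed within the trio more than they set it apart. MKI67, the proliferation antigen Ki-67 (chosen after its values were seen), measured 197, 195 and 95.3 CPM against 21.6 (M), 79.9 and 591 CPM (O). The summed level of the list was 1475, 1819 and 717 CPM in H, I and J against 316, 759 and 4567 CPM. H and I were above the median of the others and J below it. The fitted values were below 0 at 30 of 31 genes (median -0.35), but the median of the log2 ratios of group medians was 0.77, and limma on log values gave a list median of 0.05. RRM2, a subunit of ribonucleotide reductase, showed the same split, at 87.4, 135.5 and 32.9 CPM against 11.96, 49.9 and 487 CPM. The CDK inhibitors and p53 targets were above 0 at 10 of 19 (median 0.02).

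All 29 lists had 0 genes called. The alternatives of list medians leave out the DESeq2 test, which was not applied to lists. The list medians of fibroblast collagens and glycoproteins (-0.411 to -0.064), TGF-β and BMP signalling (-0.445 to -0.195), Wnt signalling (-0.354 to -0.138) and glycolysis and hypoxia (-0.363 to -0.184) lay below 0 under every alternative, as did that of cartilage. The lists of collagen modification and axon guidance (below 0) and of MSC markers (above 0) also kept their side, which made 8 lists of 29. Their medians came as near 0 as -0.01 (collagen modification), -0.007 (axon guidance) and 0.008 (MSC markers), beside -0.04 over all genes fitted. The rest changed side or reached 0 under at least 1 alternative.

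**Figure D4:**
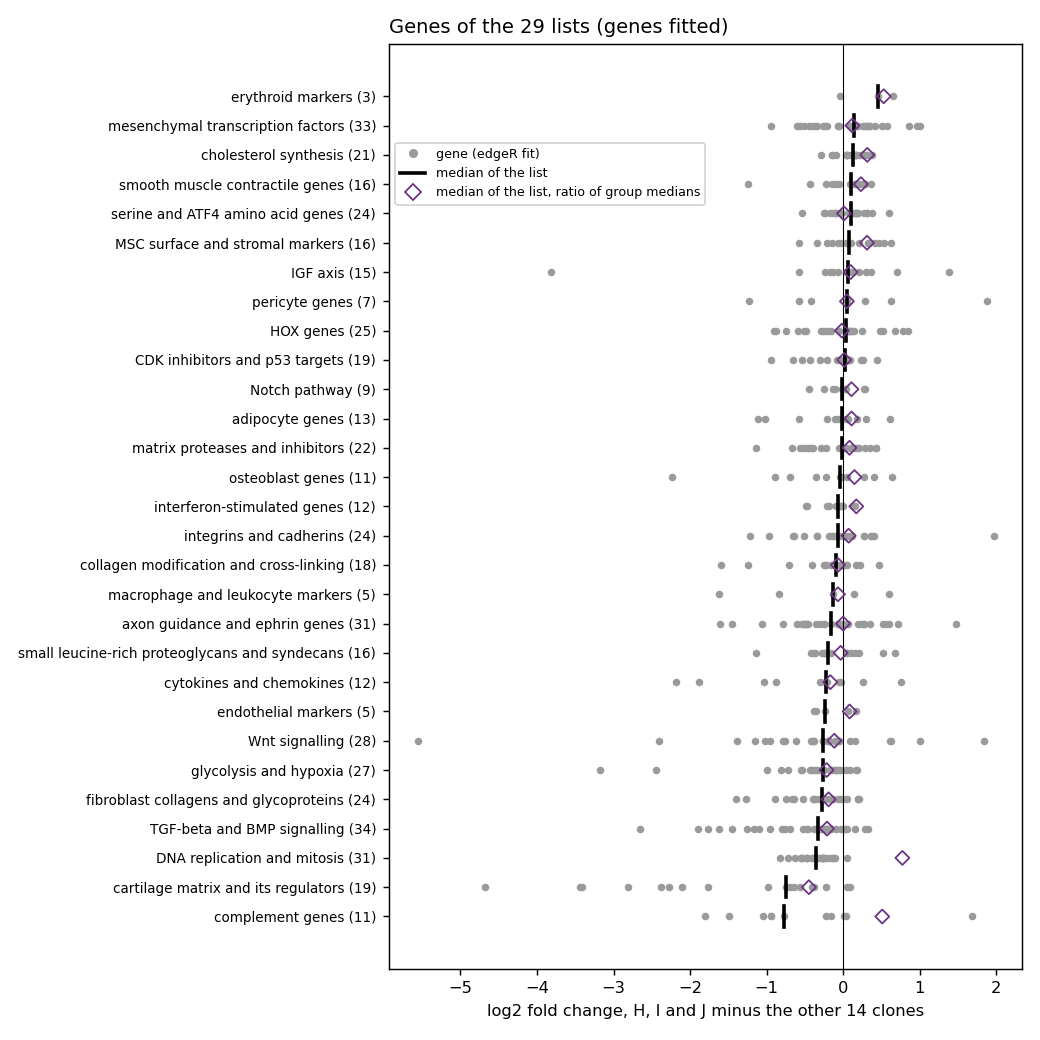
Fitted log2 fold change (x axis, H, I and J minus the other 14 clones) of each gene of the 29 lists (y axis, with the number of genes fitted), with the list median (black bar) and the median of the log2 ratios of group medians (open diamond). The cartilage list lies low by both measures (-0.75 and -0.45), and the complement and the DNA replication and mitosis lists have bars and diamonds on opposite sides of 0.

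The 10 genes with the widest range among H, I and J included genes of basement membrane and cell surface. COL4A1 and COL4A2, the paired type IV collagen chains of basement membranes, measured 26.7 and 11.6 CPM in H, 112 and 54.2 CPM in I and 1.68 and 0.510 CPM in J. The order I, H, J was the same at both genes, and I ranked 4 and 3 of the 17 clones while J ranked 16 at both. LAMA2, the laminin α2 chain, ran the other way, with 22.8, 3.06 and 59.1 CPM, so that I was the lowest of all clones and J the second highest. Its log2 fold change of -0.12 ± 0.58 became -1.25 without J. MFAP2, a protein of elastic microfibrils, measured 1.96, 30.03 and 26.7 CPM against 2.83, 14.6 and 26.4 CPM. H was thus below every other clone and I and J above each of the 14.

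At other genes 1 of the 3 clones stood alone. PDPN (podoplanin), a mucin-like surface protein, measured 2.62 CPM in H and 8.45 CPM in J but 0.0680 CPM in I, under the 0.514 CPM of the lowest other clone. LRRC17 measured 9.46, 0.680 and 17.8 CPM and C1R, the protease that starts the classical complement pathway, 10.9, 0.544 and 10.1 CPM, with I lowest in both. PAX3, a transcription factor of muscle and neural crest precursors, measured 9.70, 7.75 and 0.364 CPM against 0.247, 4.37 and 19.3 CPM. PCDHGA10 measured 1.61, 0.883 and 19.8 CPM, against 3.84 to 22.8 CPM in the others. It is 1 of a cluster of protocadherin genes that share exons, so its reads could be split among them and its values are uncertain.

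A stricter reading kept genes at which 1 clone lay at least 2-fold beyond each of the 16 other clones, at a mean of at least 5 CPM. Such genes were not counted for the other clones, so the numbers cannot be called many or few. Of the 9183 genes at that mean level, clone H had 3 such genes, I had 6 and J had 0. In H they were SFRP4, ACAN on the low side, and MSLN (mesothelin), at 90.9 CPM against 34.2 in I, 41.2 in J and at most 38.4 CPM in the rest. In I the higher genes included MTHFD2L, a mitochondrial folate enzyme (20.8 CPM against 4.76 in H, 5.25 in J and at most 7.42 CPM), and SLIT2, a guidance ligand of ROBO receptors (40.1 CPM against 3.15, 2.92 and at most 13.9 CPM). The lower genes in I were PDPN, RASGRF2, a Ras exchange factor (0.204 CPM against 4.17, 5.18 and at least 0.966 CPM), and SLITRK2 (1.90 CPM against 13.7, 8.75 and at least 4.62 CPM). MSLN, MTHFD2L, RASGRF2 and SLITRK2 were chosen after their values were seen. The log2 fold change of SLIT2, 1.47 ± 0.72 with all 3 clones, was -0.87 without I.

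**Figure D5:**
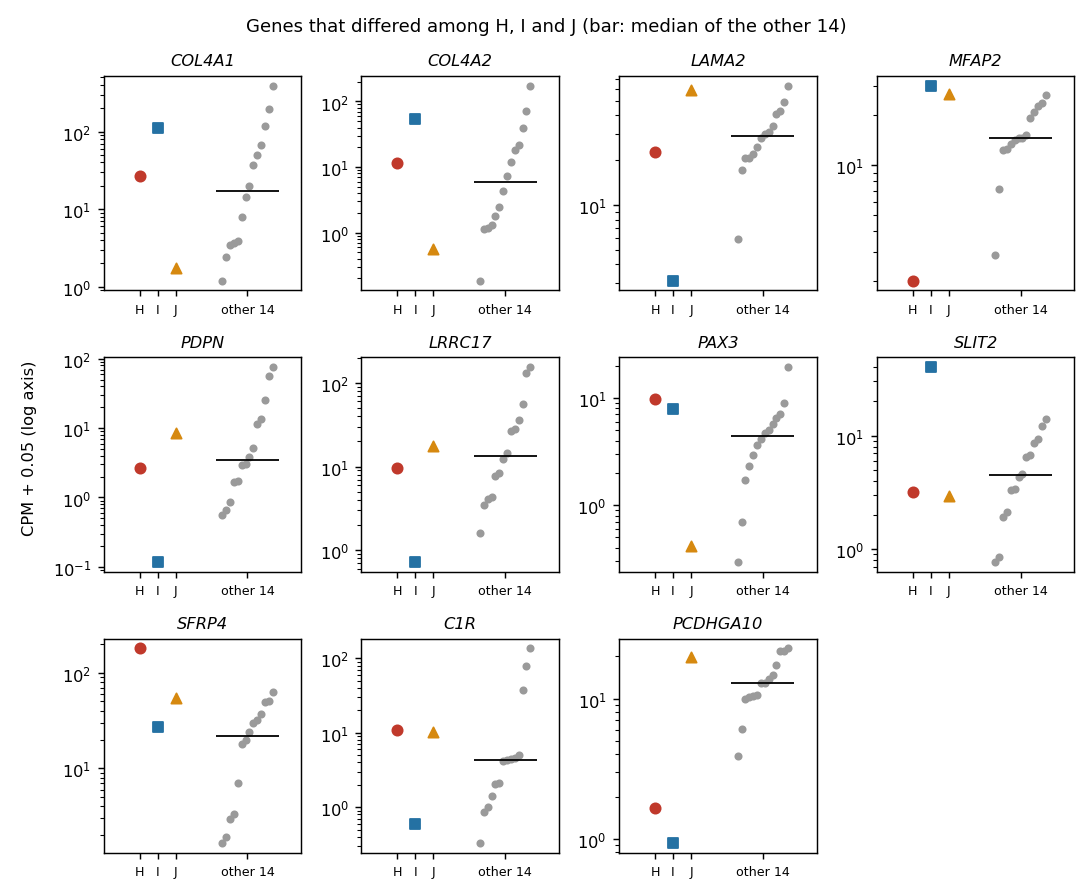
Level of 11 genes that differed among H, I and J (colour), with the other 14 clones in order of level (grey, with a bar at their median), as CPM + 0.05 on a log axis. COL4A1 and COL4A2 are highest in I, then H, then J, and LAMA2 runs the opposite way.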

How the data were processed

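The authors aligned single-end reads to bosTau7 with STAR 2.3.0e and tallied reads per gene by HTSeq with the RefSeq annotation release 103. The deposited files hold raw, unnormalized counts for each gene, and tally lines that name no gene stayed out of library sizes. Of 16989 genes 2614 had 0 reads in all clones, and filterByExpr kept 11339. edgeR 4.0.16 (TMM, glmQLFit, glmQLFTest) in R 4.3.3 fitted the 17 clones, with DESeq2 1.42.0, limma 3.58.1, other scalings, no filter and left-out clones as alternatives. Standard errors were derived from the edgeR test, as the absolute log2 fold change over the square root of its F statistic. Tallies were compared by exact permutation over 680 assignments (numpy 2.4.6). The edgeR fit was tested on data simulated with a common dispersion for all genes, and the DESeq2 and limma fits were not tested in this way.

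The clones, the 29 gene lists and the tests were chosen with earlier results of these data known. Genes are named where H, I and J lay outside the range of the others at a mean of at least 5 CPM (up to 15 each way), for the 10 largest ranges within the trio, for the 4 largest fold changes of each list, and for ACAN, COL2A1, SOX9, COMP and PRG4. Other named genes, including those under 5 CPM that did not overlap, were chosen after their values were seen. Gene symbols are those of the files. One gene that the rule names is not reported here.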

Additional observations from a re-analysis of the deposited data

How the results depend on the processing

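0 genes were called under each of 9 alternatives of the gene-by-gene comparison (DESeq2 in 1, edgeR in the rest), and none under the 2 chosen after seeing the data (limma on log2 CPM, and leaving out N, P and Q, the 3 clones at the far end of the second principal component). Genes with an unadjusted p under 0.05 numbered 126 to 474. The non-overlapping genes, 11 higher and 9 lower, became 18 and 3 with library totals and 26 and 27 without N, P and Q. Without H, I or J in turn they were 35 to 95 higher and 25 to 59 lower, since fewer clones have to lie outside the range. The difference in reads on genes was -662857 to 421189 without H, I or J in turn, that in reads outside genes -0.776 to 0.551 percentage points and that in ambiguous reads -0.000357 to 0.00565 points. Without clone N the difference in reads outside genes was 0.219 points. Of 1609 fold changes of named genes under alternatives 19 moved by at least the SD between clones, as did 2 of 290 list medians, that of complement genes without N, P and Q (0.674) and that of erythroid markers with no filter (-0.509). By Spearman rho the nearest clone of J was H in place of B, and I and J ranked 34 to 42 among all pairs over the measures of likeness. No paired analysis was possible because the labels pair no clone of the trio with any of the other clones. Each clone was sequenced once, gene lengths were not used, and genes near 3 reads are measured poorly, so levels are compared between clones and never between genes.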

Other observations

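Mesenchymal transcription factors and HOX genes, only some of which mark where in the body a stromal cell arose, differed little as groups. On the list of mesenchymal transcription factors 19 of 33 fitted genes had a log2 fold change above 0 (median 0.13), with OSR1, a factor of lateral and intermediate mesoderm, at 81.5, 39.9 and 55.5 CPM in H, I and J against 14.2, 21.7 and 56.4 CPM for the lowest, median and highest other clone (0.998 ± 0.39 SE). TBX2 measured 6.01, 5.30 and 4.74 CPM against 0.807, 2.20 and 7.22 CPM (0.96 ± 0.46). The HOX list was above 0 at 13 of 25 (median 0.04). HOXC10 measured 8.03, 5.57 and 3.06 CPM against a median of 2.41 CPM, and HOXC8 2.92, 10.8 and 1.24 CPM against a median of 1.94 CPM, where I was the highest of all clones and the log2 fold change of 0.85 ± 0.59 was -0.41 without I. Axon guidance and ephrin genes were below 0 at 20 of 31 (median -0.16), integrins and cadherins at 13 of 24 (median -0.07) and Notch genes at 5 of 9 (median -0.02). The summed Notch list was 2693 CPM in H, the highest of all clones, and 1711 CPM in I, the lowest.

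Genes of the other MSC fates showed no common lean. Osteoblast genes were below 0 at 7 of 11 (median -0.04), adipocyte genes at 7 of 13 (median -0.02) and smooth muscle contractile genes at 6 of 16 (median 0.10). SP7, the osteoblast factor osterix, measured 11.9, 24.7 and 19.02 CPM against a median of 36.4 CPM (-0.89 ± 0.72). Cytokines and chemokines were below 0 at 10 of 12 (median -0.23), led by IL6 at 4.40, 8.15 and 5.25 CPM against 1.66, 18.7 and 110.1 CPM (-2.19 ± 1.10). Interferon-stimulated genes were below 0 at 9 of 12 (median -0.07), while ISG12(B), which is not on that list, lay above the other clones. Serine and ATF4 amino acid genes were above 0 at 15 of 24 (median 0.10), with ATF3 at 16.5, 40.4 and 33.5 CPM against a median of 20.9 CPM. Complement genes were below 0 at 8 of 11 (median -0.77), but C2 measured 20.4, 2.45 and 12.9 CPM against a median of 3.13 CPM (1.69 ± 0.66, and 1.05 without H), and the list median was 0.67 without N, P and Q. Macrophage and leukocyte markers had a median of -0.14 over 5 fitted genes, endothelial markers -0.24 over 5 and erythroid markers 0.45 over 3.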
